A study of Gasterosteus aculeatus with 31 samples.

Results

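The left brain sides of juvenile threespine stickleback (Gasterosteus aculeatus) were compared between father-reared and orphaned fish by ATAC-seq, an assay in which a transposase cuts open chromatin and the reads at a peak measure its accessibility. The members are the libraries titled left brain, 13 of the 31 in the series. They came from 8 father-reared fish (3 males and 5 females, labelled Day 10, reared by their wild-caught fathers) and from 5 orphaned fish (2 males and 3 females, labelled Day 0, hand-reared). The other 18 libraries were right brain sides of other fish, 8 father-reared and 10 orphaned, and each fish gave 1 library. All fish, orphaned ones included, came from a half-sib design, were 6 to 8 months old and not yet mature, and met a moving model sculpin, a simulated predator, 60 minutes before the brain was taken. No group without the simulated attack was analysed here. A side of a whole brain mixes all its cell types, so a change in how many cells of a type were present and a change in accessibility per cell cannot be told apart. The brain origin could not be checked against marker genes, because the table names no genes and no annotation of its build was used.

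In threespine stickleback, fathers alone tend the nest: they fan the eggs, guard the brood and retrieve fry that stray. Such care is known for lasting effects on offspring behaviour in this species, including responses to predators. Accessible chromatin marks promoters and enhancers that transcription factors can reach, and in brain tissue it is used as a readout of regulatory state after early experience. The left and right sides of a fish brain can differ in structure and gene activity, the habenula being the best known case.

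The father-reared fish are numbered 1 to 8 and the orphaned fish 1 to 5 within the left libraries. Family was read here from the leading number of each fish's identifier, an inference from the labels. On that reading the 8 father-reared fish came from 6 families and the 5 orphaned fish from 5 families, no left family holding both kinds of fish. Father-reared fish 4 and 5 were a brother and sister, as were fish 6 and 7. Of 16 families in all, 8 gave libraries of both sides, so left and right shared families but no fish. Any half-sib links between families were not known here, and no fit or test allowed for them.

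Left libraries held 2857578 to 10540612 counts in peaks in father-reared fish and 3679251 to 7746584 in orphaned fish. The median count per peak was 20 to 73 in father-reared and 28 to 59 in orphaned libraries. A count of the table's 102149 peaks found 93652 on the 21 linkage groups and 8497 on 667 unplaced scaffolds. Values per fish are given in CPM, counts scaled to library size with TMM factors, and differences as log2 of father-reared over orphaned from edgeR's quasi-likelihood fit with sex as covariate. The sex labels were checked on groupXIX, the X chromosome, which took 3.54% ± 0.0820 (SD, n = 5) of counts in males and 4.48% ± 0.0346 (SD, n = 8) in females. In the same left fit 1933 peaks (1.91% of 101051) passed for sex, 137 higher and 1796 lower in males. On groupXIX 14 were higher and 1779 lower of 4354 tested, and elsewhere 123 were higher and 17 lower of 96697.

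No peak passed the test for care in left brains. Among 101051 peaks tested, the father-reared fish were higher at 0 and lower at 0 with an adjusted p under 0.05 (0% called in each direction, edgeR quasi-likelihood test with Benjamini-Hochberg adjustment). The lowest adjusted p was 0.099. DESeq2 also called 0, with a lowest adjusted p of 0.18. At an unadjusted p under 0.05 edgeR listed 3504 peaks (3.47%), of which father-reared fish were above orphaned ones at 1899 and below at 1605. DESeq2 listed 2528 at that level. That split depended on the scaling. It turned with library size alone, where 1310 were higher and 1805 lower. With RLE size factors it kept its direction but was nearly even, 1808 higher and 1732 lower.

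The fit bounded most differences. The 95% interval of the care difference stayed under 1.5-fold either way at 85.7% of peaks, and under 2-fold at 99.2%. The median size of the difference was 0.10 on the log2 scale, against a median half-width of the interval of 0.32. At a peak with that median half-width, an estimated difference smaller than it was not told apart from 0 at this depth and number of fish. That width holds for 1 peak without adjustment over peaks, so it is not the limit of the adjusted test. Larger differences also went uncalled, such as -1.61 at scaffold_74 439097 and 0.90 at groupIII 5522893 (edgeR adjusted p = 0.099 and 0.15).

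The count of 0 rested on the exact set of libraries. Leaving out 1 library gave calls for 8 of the 13: 6 without father-reared fish 1, 3 without fish 2, 6 without fish 3 and 3 without fish 4, then 6 without orphaned fish 2, 2 without fish 3, 3 without fish 4 and 7 without fish 5. The other 5 omissions gave 0. These calls fell on 27 peaks, 20 of which were called for a single omission, and no peak was called in more than 3. Library numbers 1 to 33 fell into 3 stretches of 11, the nearest the labels come to the library batches of 10 to 11 they mention. With that stretch as a covariate 4 peaks passed, all lower in father-reared fish: groupXII 16583202, scaffold_178 41224, scaffold_61 935987 and scaffold_74 439097, each named by its start. The fit takes fish as independent although rearing was given to families: with counts summed per family 0 passed, and with family as a random replicate block 1 did (groupXV 4359879, lower in father-reared fish, limma adjusted p = 0.034).

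The 20 peaks with the lowest unadjusted p, of which 13 were higher and 7 lower with father care, show what the left libraries contain at their most different. They were chosen by the values that follow, which are therefore given as descriptions. Their log2 differences ran between -1.61 and 2.04 and their adjusted p between 0.099 and 0.89. Of the 20, 9 lay on unplaced scaffolds, beside 8075 of all 101051 peaks tested. No overlap between groups was seen at 3, all higher in father-reared fish. Among all peaks tested 57 (0.0564%) did not overlap and were higher, and 60 (0.0594%) were lower. Choice by low p favours such peaks. Positions are the table's own sequence names, starts and stops. Genes were not assigned, for want of a named build.

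The peak at scaffold_74, 439097 to 439497, had the lowest p. It held 3.23, 4.98 and 16.7 CPM (lowest, median, highest) in father-reared fish, and 22.0, 5.64, 21.1, 4.01 and 40.0 CPM in orphaned fish 1 to 5. Orphaned fish 1, 3 and 5 and father-reared fish 3 were high, the other 9 fish lay at or below 5.72 CPM, and the groups overlapped. The father-reared mean was 6.19 ± 4.33 CPM (SD, n = 8) and the orphaned mean 18.5 ± 14.6 CPM (SD, n = 5), which the fit put at -1.61 on the log2 scale (SE 0.29, 95% interval -2.18 to -1.03, edgeR adjusted p = 0.099). The call depended on single fish: the adjusted p was 9.0e-06 without father-reared fish 3, 0.00076 without orphaned fish 2 and 0.00057 without orphaned fish 4, while DESeq2 and the fit with family as a random block both gave 1.0.

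Most neighbouring peaks on scaffold_74 leaned the same way, but only some of them by much. Within 10 kb lay 7 peaks, 6 of them lower and 1 higher with father care, with a median log2 difference of -0.20. Of the 7, 2 had an unadjusted edgeR p under 0.05, including the one at 446699. The peak at 446699 to 447099 was also among the 20: it held 2.51, 4.46 and 9.92 CPM in father-reared fish, against 9.34, 7.75, 10.3, 5.61 and 18.2 CPM in orphaned fish. Fish 3 was again the highest father-reared fish and fish 5 the highest orphaned one, and the groups overlapped. Its log2 difference was -0.95 (SE 0.20, edgeR adjusted p = 0.38). Its adjusted p was 0.0035 without father-reared fish 3 and 0.050 without orphaned fish 4, just under the threshold.

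At groupIII, 5522893 to 5523293, counts were 6.82, 9.68 and 12.5 CPM in father-reared fish and 5.43, 7.28, 5.22, 4.81 and 3.64 CPM in orphaned fish. All 8 father-reared fish exceeded 4 of the 5 orphaned fish, and 6 exceeded all of them. Means were 9.65 ± 2.22 CPM in father-reared against 5.28 ± 1.32 CPM in orphaned fish (SD, n = 8 and 5), or 0.90 on the log2 scale (SE 0.17, adjusted p = 0.15 by edgeR). The 2 other peaks within 10 kb differed by -0.07 and 0.10. The adjusted p was 0.019 without father-reared fish 3, 0.043 without fish 4 and 0.020 without orphaned fish 2.

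At scaffold_185, 7570 to 7970, father-reared fish held 3.23, 6.79 and 12.1 CPM and orphaned fish 2.15, 3.52, 2.16, 2.14 and 6.14 CPM. Orphaned fish 2 and 5 lay inside the father-reared range, and 5 of the 8 father-reared fish were above every orphaned fish. The log2 difference was 1.24 (SE 0.25, edgeR adjusted p = 0.23), with an adjusted p of 0.043 without father-reared fish 4 and 0.0083 without orphaned fish 5. The single peak within 10 kb, starting 914 bases before it, leaned the same way (log2 1.11, SE 0.32, unadjusted edgeR p = 0.0013). At that neighbour father-reared fish 3 and orphaned fish 3 held 0 CPM, and the other left fish 4.27 to 18.0 CPM. The right fish of family 26, the family of father-reared fish 3, also held 0 CPM there.

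The fourth peak lay on the X, at groupXIX 8627906 to 8628306, of which males carry 1 copy. It held 4.60, 10.9 and 18.7 CPM in father-reared fish and 1.14, 7.05, 6.85, 2.14 and 6.59 CPM in orphaned fish. The 2 lowest father-reared fish, 3 and 6, were males, and they were the only father-reared fish inside the orphaned range. With sex in the fit the log2 difference was 1.12 (SE 0.23, edgeR adjusted p = 0.23), and its adjusted p was 0.042 without father-reared fish 3 and 0.0021 without orphaned fish 2. Of the 4 other peaks within 10 kb, 2 were higher and 2 lower with father care. Their log2 differences ran between -0.11 and 0.06, and 0 had an unadjusted edgeR p under 0.05.

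At scaffold_556, 12763 to 13163, father-reared fish held 3.70, 6.07 and 9.91 CPM and orphaned fish 2.15, 6.34, 2.88, 2.40 and 0.909 CPM. Orphaned fish 2 stood above the other orphaned fish and within the father-reared range. The log2 difference was 1.23 (SE 0.26, edgeR adjusted p = 0.38), and 0.0047 was the adjusted p without that fish. The single other peak within 10 kb differed by -0.08 (SE 0.33).

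Groups were apart at groupXVII 2746977 to 2747377. Counts were 5.32, 7.15 and 9.08 CPM in father-reared fish and 4.16, 5.17, 2.16, 4.01 and 4.09 CPM in orphaned fish. The gap between the nearest fish was small, and as log2 the groups were 0.88 apart (SE 0.19, adjusted p = 0.63 by edgeR). At groupVI 798798 to 799198 the direction was the other one: 3.23, 5.05 and 7.60 CPM in father-reared fish, against 7.57, 8.46, 8.83, 10.2 and 8.41 CPM in orphaned fish. There 7 of the 8 father-reared fish lay below every orphaned fish, and the log2 difference was -0.77 (SE 0.17, edgeR adjusted p = 0.63).

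The peaks of rank 9 and 10 were both higher in father-reared fish. At scaffold_61 574358 to 574758 they held 7.22, 13.7 and 27.6 CPM, against 8.46, 2.11, 2.34, 12.8 and 9.78 CPM in orphaned fish (log2 1.08, SE 0.24, edgeR adjusted p = 0.64). Orphaned fish 2 and 3 were far below the rest, the groups overlapped, and the adjusted edgeR p was 0.042 without orphaned fish 4. At scaffold_204 47860 to 48260 father-reared fish held 3.46, 9.07 and 12.9 CPM and orphaned fish 4.42, 4.70, 5.58, 5.88 and 6.14 CPM (log2 0.79, SE 0.18, edgeR adjusted p = 0.70). Here 7 father-reared fish were above every orphaned fish and 1 was below every one.

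**Figure D1:**
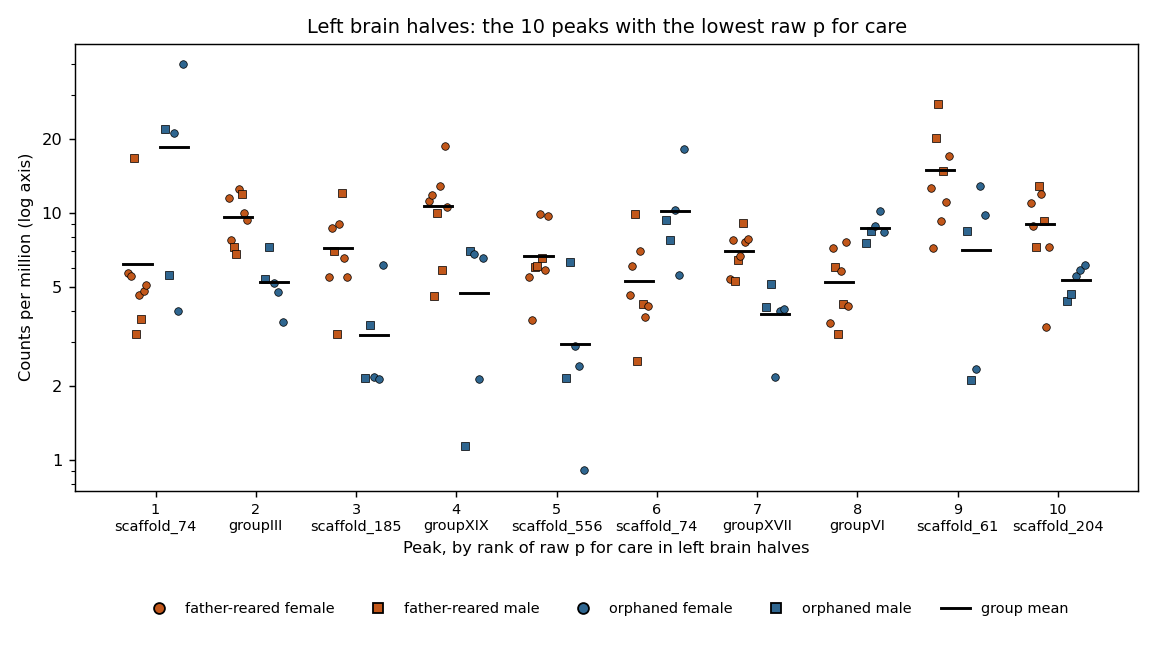
CPM (log axis) at the 10 peaks with the lowest unadjusted p for care in left brains, with father-reared fish (orange) left of orphaned fish (blue), circles for females, squares for males and a bar for each group mean. At rank 1, the scaffold_74 peak, 3 of 5 orphaned fish and 1 of 8 father-reared fish lie at 16.7 CPM or more, and only at rank 7, groupXVII, do the groups not overlap.

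Among the other 10 of the 20, father-reared fish were above orphaned ones at 6 and below at 4. The largest difference was at groupXXI 3385636 to 3386036, a weak peak of 1.16, 1.66 and 9.79 CPM in father-reared fish, against 1.01, 0.235, 0.901, 0.534 and 0.909 CPM in orphaned fish. The groups did not overlap, and father-reared fish 6 stood far above the rest. As log2 this was 2.04 (SE 0.47, adjusted p = 0.70 by edgeR). The scaffold_56 peak at 1075792 to 1076192 also did not overlap, with 3.56 ± 1.06 CPM in father-reared against 1.46 ± 0.261 CPM in orphaned fish (SD, n = 8 and 5; log2 1.24, SE 0.31, edgeR adjusted p = 0.89). At groupI 19249555 to 19249955, father-reared fish averaged 8.94 ± 1.15 CPM and orphaned fish 13.8 ± 3.79 CPM (SD, n = 8 and 5; log2 -0.60, SE 0.15, edgeR adjusted p = 0.85).

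Some of these 10 passed without 1 fish. The peak at groupXXI 7988524 to 7988924 (log2 -0.82, SE 0.20) had an adjusted edgeR p of 4.5e-05 without father-reared fish 2, which at 23.9 CPM was above all orphaned fish while the other 7 father-reared fish were below all of them. That at scaffold_61 935987 to 936387 (log2 -0.96, SE 0.23) had an adjusted edgeR p of 0.0026 with library stretch as covariate, 0.0045 without father-reared fish 1 and 0.011 without orphaned fish 5. The scaffold_193 peak at 84179 to 84579 (log2 -1.19, SE 0.28) reached 0.043 without father-reared fish 4.

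Right brains, which took no part in choosing the 20 peaks, gave a separate reading of them. Of the 20, 15 differed in the same direction on the right, beside 53.4% of 100898 peaks tested on both sides. Of the 20, 6 did so with an unadjusted right p under 0.05, beside 6.07% of all peaks, and the lowest adjusted right p among the 20 was 0.43. These 6 were scaffold_185 7570, groupXIX 8627906, scaffold_61 574358, groupXXI 3385636, groupII 14550436 and groupI 19249555. Families were shared between sides, and with right fish of other families only (4 father-reared, 6 orphaned) 10 of the 20 kept their direction, beside 52.4% of all peaks. In that smaller set 4 had the same direction and an unadjusted p under 0.05, beside 6.68% of all peaks. That fit of 10 right fish called 77 of 100916 peaks, 30 higher and 47 lower with father care, in place of 1 with all 18. Its fish were the brother and sister pairs of families 17 and 20 (father-reared) and 25, 32 and 39 (orphaned). The fit took them as independent, so its calls do not measure the spread between families. None of the 20 was among the 77, with a lowest adjusted edgeR p of 0.054.

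Particular peaks differed in how the right side read. At groupII 14550436 to 14550836 left father-reared fish averaged 13.1 ± 3.42 CPM and left orphaned fish 8.37 ± 1.45 CPM (SD, n = 8 and 5; log2 0.68, SE 0.16). Right father-reared fish averaged 13.7 ± 4.54 CPM there and right orphaned fish 9.19 ± 2.96 CPM (SD, n = 8 and 10; log2 0.59, SE 0.16, edgeR adjusted p = 0.43), close to the left values. At the rank 1 scaffold_74 peak right father-reared fish averaged 10.3 ± 8.91 CPM and right orphaned fish 11.2 ± 11.3 CPM (log2 -0.12, unadjusted edgeR p = 0.74). At groupIII 5522893 the right log2 difference was 0.03 (unadjusted edgeR p = 0.88), and at scaffold_56 1075792 it was -0.47 (unadjusted edgeR p = 0.10), opposite to the left.

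**Figure D2:**
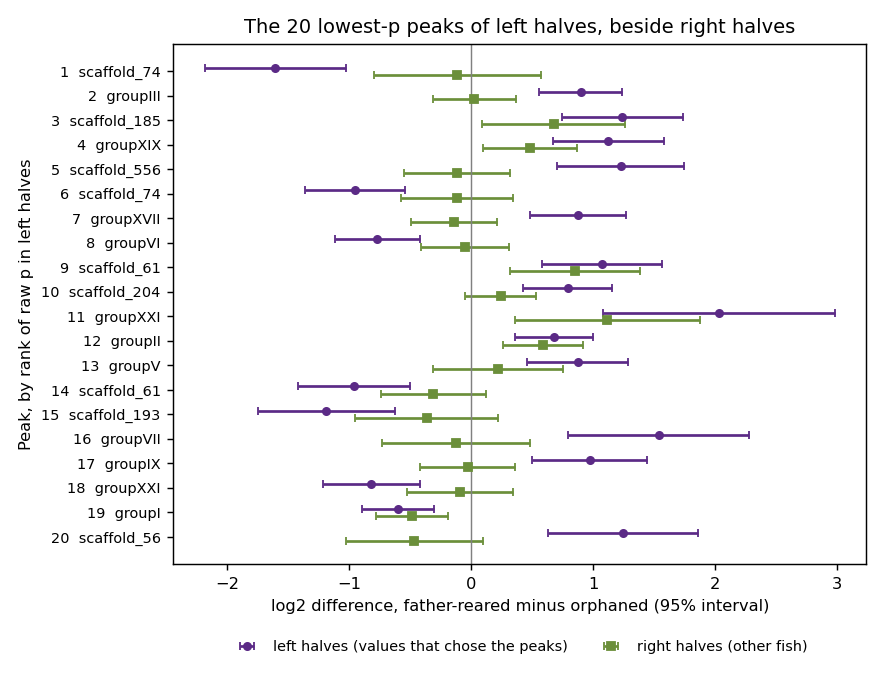
Log2 difference in accessibility, father-reared minus orphaned, with 95% intervals, at the 20 peaks with the lowest left p (rows by rank), for left brains (purple circles) and right brains (green squares). The left values chose the peaks; on the right 15 of the 20 share the left direction and most lie nearer 0.

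No peak passed a test of the left minus right difference in the care effect. Of 100979 peaks tested over all 31 libraries, 0 were called (0%), 5278 (5.23%) had an unadjusted p under 0.05 and the lowest adjusted p was 0.80 with edgeR, and DESeq2 called 0 with 4966 at an unadjusted p under 0.05. The 95% interval of this difference stayed under 1.5-fold either way at 45.9% of peaks and under 2-fold at 95.6%, so it was bounded less tightly than the left effect. The lowest p was at groupX 13334191 to 13334591. On the left, father-reared fish averaged 7.14 ± 0.976 CPM and orphaned fish 4.76 ± 0.509 CPM (SD, n = 8 and 5). On the right, father-reared fish averaged 5.62 ± 1.18 CPM and orphaned fish 7.75 ± 1.50 CPM (SD, n = 8 and 10). As log2, the left minus right difference was 1.01 (SE 0.21, edgeR adjusted p = 0.80), and groupIX 15590616 to 15591016 had a like pattern (0.95, SE 0.20, edgeR adjusted p = 0.80). So did scaffold_137 50894, with log2 differences of 0.50 on the left and -0.64 on the right, and groupI 8129313, with 0.31 and -0.96, both with an adjusted edgeR p of 0.92 for the difference between sides.

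Right brains had 1 call for care (0.00099% of 101021 peaks), at scaffold_89 10177 to 10577, a peak described here because of its right values. Left father-reared fish 1 to 8 held 0.291, 0, 12.6, 0.359, 0.291, 20.5, 1.38 and 0.183 CPM, and left orphaned fish 1 to 5 held 0.757, 0, 22.2, 0.267 and 0.227 CPM. Father-reared fish 3 and 6, both males, and orphaned fish 3, a female, were high, and the groups overlapped. The left log2 difference was -0.47 (SE 0.69, 95% interval -1.86 to 0.91, edgeR adjusted p = 1.0). Orphaned fish 3 decided that value: without it 2 of 8 father-reared and 0 of 4 orphaned fish were high, and the log2 difference was 4.09 (SE 0.66, edgeR adjusted p = 0.0091). On the right 4 of 8 father-reared fish held 16.6 to 24.0 CPM, and the 10 orphaned fish held at most 0.393 CPM (log2 5.37, SE 0.68, edgeR adjusted p = 2.9e-05). The left minus right difference was -5.81 (SE 1.33, edgeR adjusted p = 0.92). These fits treat counts as graded and take fish, siblings included, as independent. Their adjusted p are a weak guide at a peak high in some fish and near 0 in the rest. They do not measure the spread between families.

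Both this peak and the rank 1 scaffold_74 peak had 2 levels with no fish between, over both sides. At scaffold_89 low fish held at most 1.38 CPM and high fish at least 12.6 CPM. At scaffold_74 low fish held at most 7.58 CPM and high fish at least 16.7 CPM. With a level of 15 CPM, chosen after the values were seen, the scaffold_74 peak was high in 1 of 8 left father-reared and 3 of 5 left orphaned fish, and in 2 of 8 right father-reared and 3 of 10 right orphaned fish. Fish of a family were sometimes alike and sometimes not. In family 40 the left orphaned fish held 40.0 CPM and a right one 37.7 CPM, while in family 30 the left orphaned fish held 22.0 CPM and a right one 5.14 CPM. At scaffold_89 the brother and sister of family 19, left father-reared fish 6 and 7, held 20.5 and 1.38 CPM. Families 17, 20, 26, 31 and 35, also father-reared, likewise held 1 high and 1 low fish there. Their high fish held 12.6 to 24.0 CPM and their low fish at most 1.01 CPM. In the father-reared families 07 and 27 both fish held at most 0.473 CPM.

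**Figure D3:**
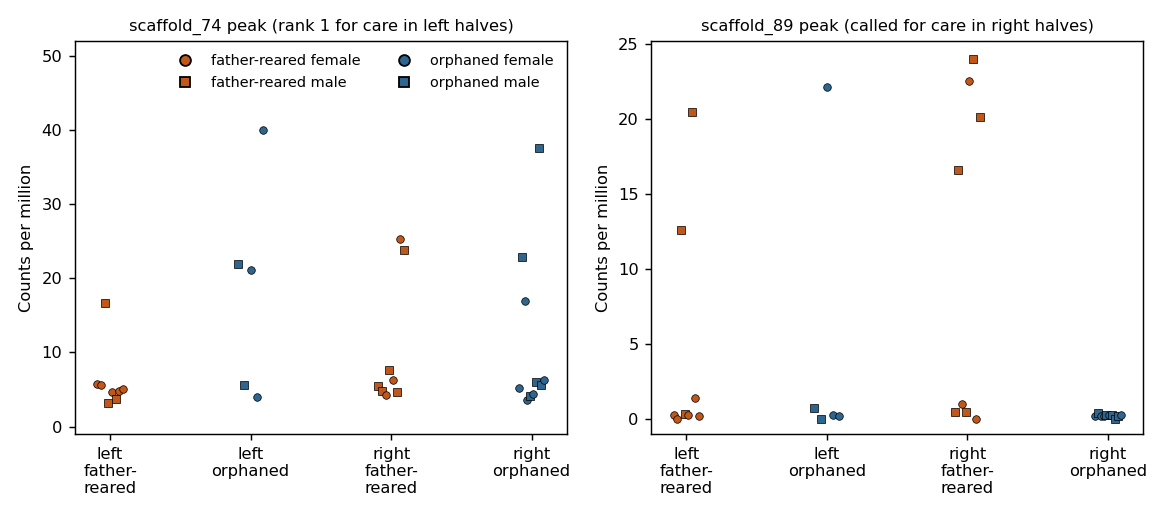
CPM in every fish at the scaffold_74 peak (439097 to 439497) and the scaffold_89 peak (10177 to 10577), by side and rearing, with circles for females and squares for males. At scaffold_74 high fish occur in all 4 groups; at scaffold_89 high fish occur in all groups but the right orphaned one, whose 10 fish hold at most 0.393 CPM.

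Across left libraries 57 peaks (0.0564%) had all 8 father-reared fish above all 5 orphaned fish, and 60 (0.0594%) had all of them below. The differences were modest, with a median log2 of 0.42 for the higher list and -0.38 for the lower one. On the right 28 of the 56 higher peaks tested (50%) were higher in father-reared fish, and 20 of the 60 lower ones (33.3%) were higher, beside 48.2% of all right peaks. No peak of either list was without overlap on the right. Among all 101051 peaks tested on the left, only 4 were higher and 6 lower without overlap there. At so low a share, 0 in these short lists shows little about them. Besides the 3 non-overlapping peaks given above, the largest differences upward were at groupIV 14181219, with 4.97 ± 0.534 CPM in father-reared against 2.92 ± 0.930 CPM in orphaned fish (log2 0.69, SE 0.22), and groupIII 9439636, with 5.87 ± 1.46 CPM in father-reared against 3.60 ± 0.628 CPM in orphaned fish (log2 0.69, SE 0.20). Downward the first was groupX 13466093, with 3.46 ± 0.768 CPM in father-reared against 5.57 ± 0.668 CPM in orphaned fish (log2 -0.68, SE 0.20). Next was groupXX 4479015, with 5.04 ± 1.39 CPM in father-reared against 8.05 ± 1.07 CPM in orphaned fish (log2 -0.66, SE 0.17). Errors are SD with n = 8 and 5, and the adjusted edgeR p was 1.0 at all 4. The next downward peaks, groupX 1628272, groupXII 168452 and groupIII 7208910, had log2 differences of -0.64, -0.59 and -0.56 on the left and -0.07, -0.10 and -0.11 on the right.

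Estimated care differences at single peaks correlated little between sides. Their median size was 0.10 on the left and 0.13 on the right, against median half-widths of the interval of 0.32 and 0.29. Error in single peaks therefore limits the correlation, and a low value does not show that the sides differed. Over 100898 peaks the left and right log2 differences had a Pearson correlation of 0.0706 and a Spearman correlation of 0.0839, given as a description, since peaks are not independent and the sides share families. With right fish of other families only, the Pearson value was 0.0248. Single left fish moved it through 0: it was -0.0288 without father-reared fish 6, -0.0214 without father-reared fish 1 and 0.176 without father-reared fish 2.

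The median left care difference changed less with peak strength than the right one, though the share of peaks higher with father care did vary. In the strongest 10% of peaks, 17.2 to 2426 CPM on average, the median left log2 difference was 0.04, and 66.8% of peaks were higher. At an unadjusted edgeR p under 0.05, 46 were higher and 11 lower (0.558% of those tested). In the weakest 10% the median was -0.0043, and 49.2% of peaks were higher. There 197 were higher and 159 lower at that level (3.91%). Over all left peaks tested 52.3% were higher, and 3.47% had such a p. On the right the same peak classes had medians of 0.22 and -0.10. At that level 2660 were higher and 50 lower in the strongest (26.5%), and 120 higher and 587 lower in the weakest (7.78%). Over all right peaks the share was 10.8%.

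**Figure D4:**
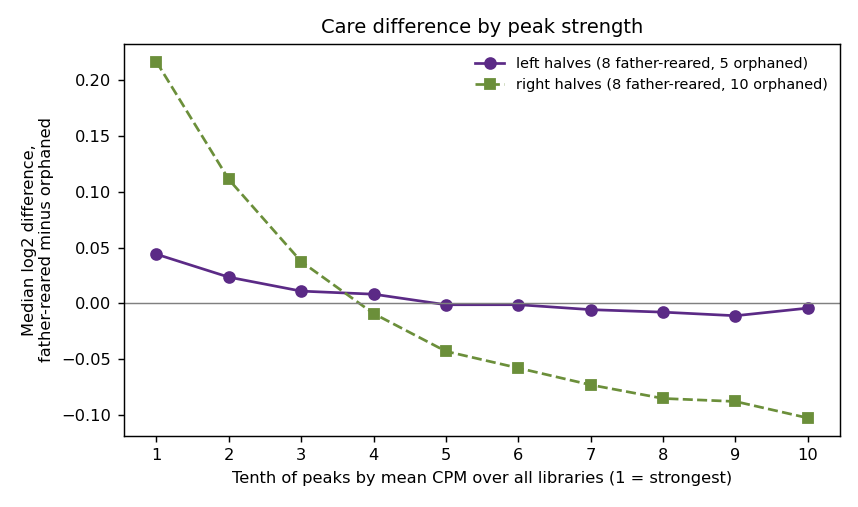
Median log2 difference, father-reared minus orphaned, for 10 equal classes of peaks ordered by mean CPM over all libraries (1 is the strongest), for left brains (purple circles) and right brains (green squares). The left line stays between -0.01 and 0.04, while the right line runs between -0.10 and 0.22.

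Each library was also described by the share of its counts in the strongest 10% of peaks, a measure of how far signal concentrates in open sites. In left father-reared fish it was 24.2%, 31.1% and 33.7% (lowest, median, highest), and in left orphaned fish 29.0%, 28.7%, 30.6%, 28.7% and 31.2%. The father-reared fish spread on both sides of the orphaned range. Over family means it was 29.6% ± 3.37 (SD, n = 6) in father-reared and 29.6% ± 1.16 (SD, n = 5) in orphaned families, which are 0.012 points apart (exact permutation test, two-sided, p = 0.98, where the smallest possible is 0.0022). Within the 3 library stretches, the left difference between fish was -0.62 (3 against 2 fish), 2.16 (4 against 2) and -1.60 points (1 against 1).

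On the right the family means of that share were 32.4% ± 2.90 (SD, n = 6) in father-reared and 29.5% ± 2.42 (SD, n = 7) in orphaned families, a difference of 2.90 points (two-sided exact permutation p = 0.073). The left care difference between fish was 2.84 points below the right one (two-sided permutation test of side within rearing group, 100000 resamples, p = 0.23), a comparison chosen after the values were seen. That test took fish as independent although families were shared between sides, so its p does not measure the spread between families.

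**Figure D5:**
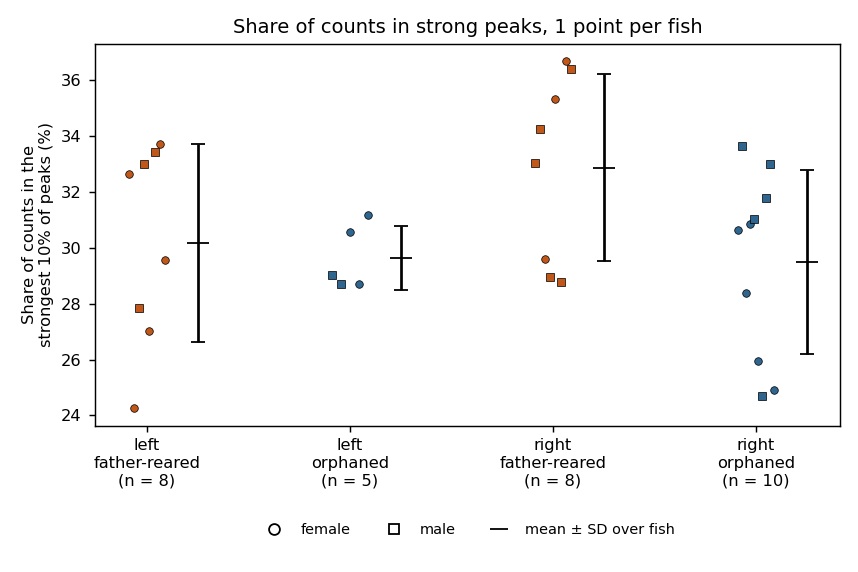
Percentage of each library's counts in the strongest 10% of peaks, 1 point per fish (circles females, squares males), with mean ± SD over fish beside the points. Left father-reared fish average 30.2% and left orphaned fish 29.6%, right father-reared fish 32.9% and right orphaned fish 29.5%.

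The other measures of whole left libraries did not pass either. Over family means, total counts were 5419110 ± 2638360 in father-reared and 5107130 ± 1623250 in orphaned families (SD, n = 6 and 5, exact permutation p = 0.84). The share on scaffolds was 8.87% ± 0.166 in father-reared and 8.82% ± 0.111 in orphaned families (SD, n = 6 and 5, exact permutation p = 0.55), and the first and second principal components gave exact permutation p of 0.86 and 0.51. Adjusted over the 5 measures, each p was 0.98. Rearing left no visible grouping in pairwise correlations of log2 CPM. Pairs of father-reared fish of different families had 0.792 to 0.905 (median 0.842, 26 pairs), pairs of orphaned fish 0.843 to 0.886 (median 0.865, 10 pairs) and mixed pairs 0.808 to 0.910 (median 0.848, 40 pairs). The 2 sibling pairs had 0.798 and 0.881, inside the range of father-reared pairs of other families. After each peak's mean over the 13 left libraries was subtracted, the sibling pairs correlated at -0.197 and 0.230, against -0.376 to 0.175 in father-reared pairs of other families.

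Sums over larger regions gave 0 calls too. Of 592 windows of 1 Mb or single scaffolds, 0 passed (0%), 60 (10.1%) had an unadjusted p under 0.05, 41 higher and 19 lower with father care, and the lowest adjusted edgeR p was 0.45. The 3 windows with the lowest p are described next. Their left sums chose them, so the lean of their peaks follows from that choice and is no support. Of all peaks tested on the left, 52.3% were higher. The window at groupIX 2 to 3 Mb, with 221 peaks, held 2295 ± 122 CPM with father care and 2164 ± 41.9 CPM without (SD, n = 8 and 5; log2 0.07, SE 0.02), and 149 of its 219 tested peaks were higher. On the right it held 2321 ± 156 CPM with father care and 2256 ± 80.0 CPM without (SD, n = 8 and 10). At groupIX 14 to 15 Mb it was 3400 ± 213 CPM with father care and 3196 ± 118 CPM without (SD, n = 8 and 5; log2 0.08, SE 0.02), with 201 of 301 tested peaks higher. At groupXX 12 to 13 Mb the left held 2988 ± 97.3 CPM with father care and 3110 ± 37.3 CPM without (SD, n = 8 and 5; log2 -0.07, SE 0.02), 106 of 298 peaks being higher. The right, with 3174 ± 130 CPM under father care and 3024 ± 165 CPM without (SD, n = 8 and 10), had the opposite order there. By linkage group, groupXVI (log2 0.03, SE 0.01) and groupX (log2 -0.03, SE 0.01) had the lowest p, both with an adjusted edgeR p of 0.28.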

How the data were processed

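The authors deposited unnormalized counts in 1 table, a whole number for each of 102149 shared peaks in each library; 101044 span 400 bases and 31 start below 1. Per the labels' protocols, homogenate was cryopreserved, transposed with Tn5 and amplified by PCR. The intervals rest on the spread of the given counts between libraries. Whether those counts include duplicated molecules is not known here. The submitters' processing notes list DiffBind 3.14.0, MACS2 2.2.5, Bowtie2 2.3.5.1, Picard 2.10.1, SAMtools 1.9 and FastQC 0.11.8, with no roles. The build, any transposase shift and the handling of duplicates were not given in the sources used here.

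From the counts, edgeR 4.0.16 (R 4.3.3) filtered peaks (filterByExpr, minimum count 10), scaled by TMM, fitted rearing and sex to the 13 left libraries and called peaks at a Benjamini-Hochberg adjusted p under 0.05. Right libraries (18) and all 31, for the side interaction, were fitted likewise. CPM used TMM factors over all 31 libraries, and 95% intervals come from the fit. The left care fit was tried on simulated counts with independent fish and no family effect, a simpler setting than these data. The outcome of that trial is not reported here, and it lends no support to the count of 0. Single values per library were tested by two-sided exact permutation over family means. Alternatives were DESeq2 1.42.0, other scalings and filters, each library left out, other covariates and family handling, including a random block (limma 3.58.1). Peaks named are the 20 with the lowest left p, the 5 largest non-overlapping each way, the 5 with the lowest interaction p and the 3 windows with the lowest p. Those called on the right or in another fit were chosen after their values were seen. Members and lists were chosen with earlier results of these data known. Each fish gave 1 library, and no replicate number pairs fish across groups.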

Additional observations from a re-analysis of the deposited data

Results flagged for a closer look

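Of 50 groups of left values examined for a fish standing apart from its own group, 6 held one, all among the 8 father-reared fish. The limit used is set so that chance flags about 1 in 20 groups of normally distributed values. Most groups here were CPM values at peaks chosen for a low p, for which that rate was not tested. Father-reared fish 1 had the deepest library, with 1.05406e+07 counts against a median of 4.52977e+06 in its group, and it also held 8.82 CPM at scaffold_61 935987, against a median of 4.26 CPM. Father-reared fish 4 had 9.44% of its counts on scaffolds, against a median of 8.78%. Father-reared fish 3 held 16.7 CPM at scaffold_74 439097, against a median of 4.98 CPM. Father-reared fish 6 held 9.79 CPM at groupXXI 3385636, against a median of 1.66 CPM. Father-reared fish 2 held 23.9 CPM at groupXXI 7988524, against a median of 7.95 CPM. The part of these fish in the care results is given by the fits without them.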

How the results depend on the processing

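The count of 0 care calls in left brains held with RLE factors, library size alone, all peaks unfiltered, peaks averaging 2 CPM or more, DESeq2, no sex term, family sums, the sisters left out, a fit over all 31 libraries, groupXIX left out, the strength trend removed and a robust variance prior added after seeing the data. It was 1 at a threshold of 0.10 and 4 with library stretch as covariate. It was 1 without the brothers of the 2 families with 2 left libraries, and 1 with family as a random replicate block. With each library left out it was 0 to 7. The cause was not tested. The peak called without the brothers, scaffold_948 5645, had been filtered out of the main fit. Father-reared fish 3 held 12.1 CPM there and the other left fish at most 0.718 CPM. Fish 3 was the only father-reared male left in that fit, so its own high value let the peak into the test. That call is therefore no evidence on care. The random block found a within-family correlation of 0.188 in left libraries, which rests on the 2 sibling pairs. In the fit of the left minus right difference over all 31 libraries it was 0.029. At scaffold_89 10177 the left log2 difference was 1.96 with that block and -1.44 to 4.09 with each library left out. Right calls numbered 1 to 4 over single omissions, and left minus right calls were 0 throughout except 2 without right libraries of families that also gave a left library. The left share of counts in the strongest peaks differed by -0.12 points for the strongest 20%, by -0.46 without the brothers and by -0.58 to 1.09 with each library left out. Counted by fish, total counts differed by -105033. The left and right correlation ran between -0.0288 and 0.176 with each library left out, and was 0.0367 with the trend removed and 0.0248 without shared families. Depth of 20 to 73 reads at the median peak, and 5 orphaned fish, limit what single peaks can show.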

Other observations

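Several peaks called only with a library left out, or with another covariate, shared a sequence, though not always close together. They were named after their values were seen and carry no test of their own. On groupVII the peaks at 407326 and 464266 had log2 differences of -0.76 and -0.88 on the left but 0.48 and 0.76 on the right. On groupXIX those at 2285771 and 2291124 had 1.04 and 0.94 on the left and 0.09 and 0.19 on the right. On groupXXI the peaks at 7940958, 7988524 and 7990810 each had 6 or 7 of the 8 left father-reared fish below every orphaned fish and 1 above every one. On scaffold_185 the peaks at 6656, 7570 and 75980 had 7, 5 and 6 of the 8 father-reared fish above every orphaned fish. On scaffold_178 the peaks were at 37312 and 41224. That at 41224 held 7.14, 10.2 and 28.7 CPM (lowest, median, highest) in father-reared fish, against 7.50, 35.6 and 36.9 CPM in orphaned fish, and the groups overlapped. At groupXV 4359879, the peak called with family as a random block, father-reared fish held 0, 0.452 and 9.68 CPM and orphaned fish 3.21, 4.42 and 6.37 CPM, so that 6 of the 8 lay below every orphaned fish and 1 above.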
